A study of Mus musculus with 6 samples.

Results

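Cells make cholesterol and fatty acids from acetyl-CoA, and 30 genes of that synthesis and its control were taken as a named list and followed in the neocortex of Bcl11a mutant embryos. The list was chosen by gene function, with earlier results of these data known. A gene was represented by the probe set that names it alone and, where several did, by the one with the highest mean over the 6 arrays. This gave values for 29 of the 30 genes, among 19938 genes in all. The expression of Acat2 was not analysed here, and only its promoter was searched. RNA came from the neocortices of 6 mice taken at embryonic day 14.5, each hybridised to its own Affymetrix Mouse Gene 1.0 ST array. The 3 controls were Bcl11a+/+ and the 3 mutants Bcl11aΔflox/Δflox, so both Bcl11a alleles of a mutant were the deleted form of the floxed allele. The Cre line behind the deletion, and with it the cells that lost the gene, is not given in the labels. RNA was prepared from each embryo on its own, so the arrays of a genotype are biological replicates. The study asks what Bcl11a, a transcription factor that binds DNA through zinc fingers, controls in projection neurons of the cortex.

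Cholesterol synthesis runs from acetyl-CoA to mevalonate, from there to the isoprenoid farnesyl diphosphate and squalene, and then through lanosterol and a series of sterol intermediates to cholesterol. Fatty acid synthesis starts from the same acetyl-CoA, which is carboxylated, built into palmitate, and then elongated and desaturated. Both routes answer to the SREBP transcription factors, which the escort protein SCAP and the retention proteins INSIG1 and INSIG2 keep in the endoplasmic reticulum membrane while sterols are plentiful. Released SREBP enters the nucleus and acts at sterol regulatory elements, usually beside sites of NF-Y and Sp1. The embryonic brain makes much of its own cholesterol, which growing neurons need for new membrane.

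Expression values are log2 values, so a difference of 1 is a doubling. Bcl11a itself (Entrez 14025), which checks the labels, read 12.20, 12.30 and 12.26 in controls and 11.41, 11.49 and 11.34 in mutants. It fell by 0.84 ± 0.06 (SE, limma adjusted p = 0.00201). Whether its probes match the deleted part of the gene is not stated in the labels. Across all genes 57 passed an adjusted p of 0.05, and correlations between arrays lay between 0.993 and 0.997. The tissue label was checked against marker genes. The 9 measured neuron markers had group means between 11.01 and 12.67, and the 6 markers of choroid plexus, a neighbouring tissue, had group means between 5.29 and 6.69. Probe sets differ in how strongly they bind, so these ranges describe the signals and do not compare transcript levels between genes. Mutant replicate 1 stood apart in genes of pericytes and meninges. The summed level of those 10 genes, on the log2 scale, was 11.92 in that array, 11.11 and 11.01 in the other mutants and 10.83 to 10.90 in the controls. Xist and Y-linked transcripts marked 2 of the controls and 1 of the mutants as female.

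No gene of lipid synthesis or of its control passed the test between genotypes. By limma 0 of 29 passed after adjustment over all genes, where 0.286% of all genes did (0.246% higher and 0.0401% lower in the mutants), and the lowest adjusted p among them was 0.631. At an unadjusted p under 0.05 there were 3, Cyp51, Fdft1 and Stard4, all with lower values in the mutants, where 1.52% of all genes passed that mark on the lower side and 6.05% on either side. None of 16 alternatives brought any of the 29 past the threshold, with a lowest adjusted p of 0.225. In the main fit, without covariate or array weights, the log2 differences, mutant minus control, ranged from -0.30 for Cyp51 to 0.14 for Srebf1. The smallest difference that the main fit called for any gene on the array was 0.38. The 95% interval of the difference lay inside a 1.5-fold change in either direction for 28 of the 29 genes, the exception being Cyp51, and 97.9% of all genes shared that property. It lay inside a 1.2-fold change for 18 of 29, against 65.8% of all genes.

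**Figure D1:**
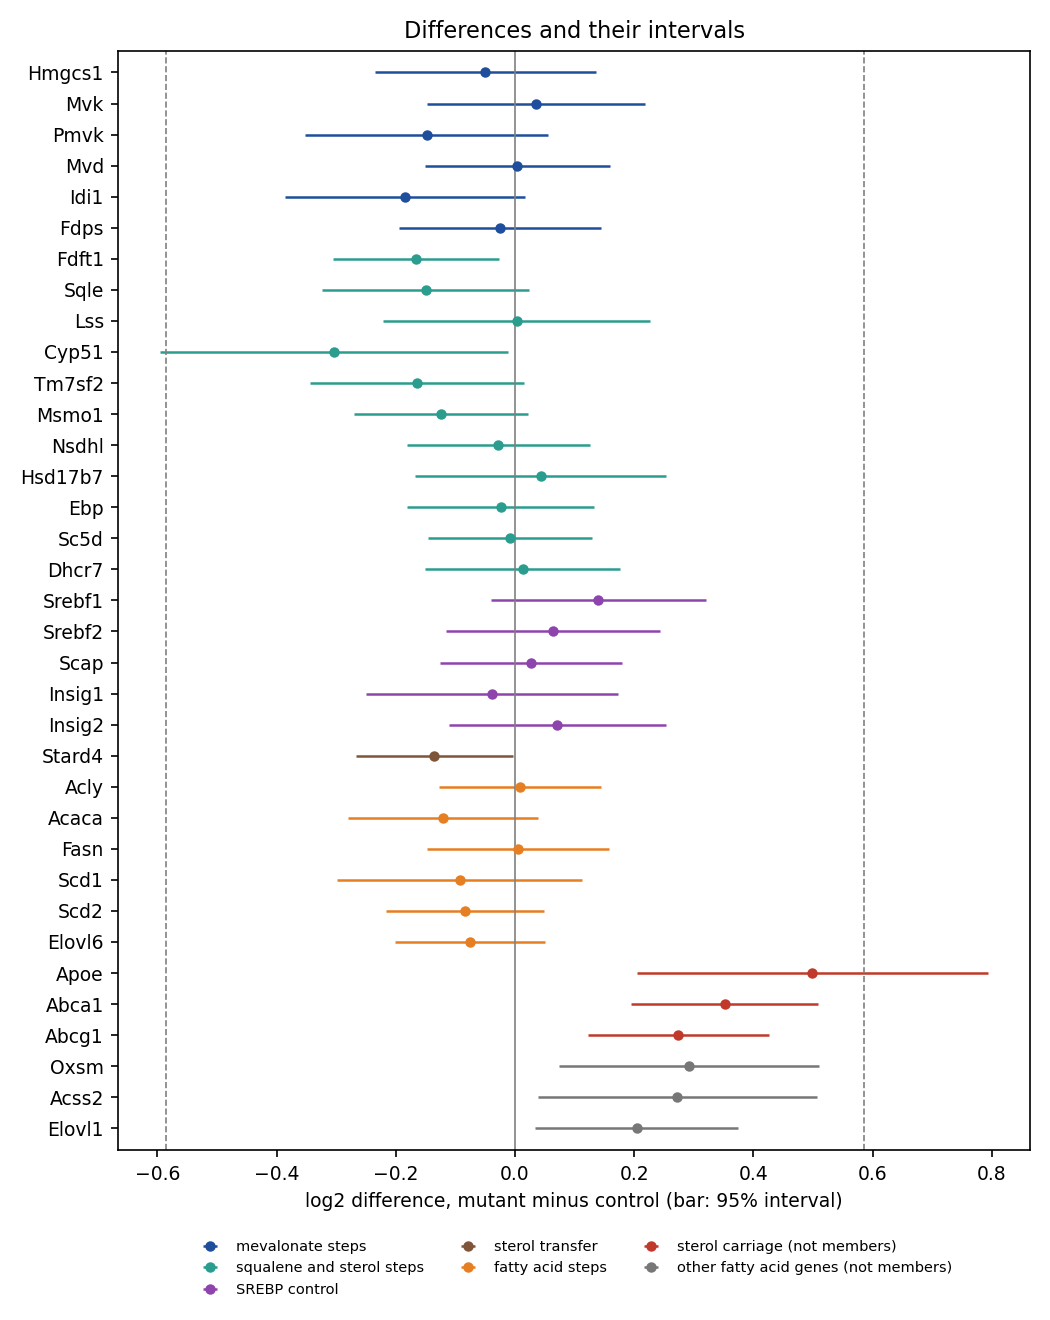
Log2 difference of mutant minus control (x axis) for the 29 lipid synthesis genes by role and for 6 further lipid genes that are not on the list, with limma's 95% interval as the bar. Dashed lines mark 1.5-fold changes. The interval of every listed gene except Cyp51, whose lower end is at -0.60, lies between the dashed lines.

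None of the differences was called, and most lay below 0; whether that share differs from other genes was not tested. They were negative in 18 of 29 genes, or 62.1%, where 39.7% of all genes had a negative difference, and their median was -0.03 beside 0.02 for all genes. Quantile normalization gave 21 negative genes and a median of -0.04, and median centring gave 18 and -0.02. Leaving out 1 array gave a median of -0.05, -0.07 and -0.01 without control replicate 1, 2 or 3, and of -0.07, -0.0011 and -0.01 without mutant replicate 1, 2 or 3. The groups did not overlap for 4 genes, Fdft1, Stard4, Scd2 and Elovl6, all lower in the mutants, where 2.85% of all genes had non-overlapping groups on the lower side and 10.5% on either side. Through all 16 alternatives, 12 genes kept a negative difference and Srebf1 alone kept a positive one, while the other 16 took both signs. Kept signs were not counted over all genes, and every fit draws on the same 6 arrays. A variance trend, a replicate block, the filter on dim genes and the threshold of 0.1 leave each difference unchanged, so no sign could turn there. Other probe sets could change only Idi1, Fdft1 and Acaca. The 12 had the lowest differences in the main fit and were Pmvk, Idi1, Fdft1, Sqle, Cyp51, Tm7sf2, Msmo1, Stard4, Acaca, Scd1, Scd2 and Elovl6. Leaving out 1 array moved the difference by over 1.5 times, or turned its sign, for 23 of the 29 genes, and the other 6 were Fdft1, Sqle, Msmo1, Stard4, Scd2 and Elovl6. In bulk tissue a smaller number of cells of a type and less RNA per cell cannot be told apart.

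**Figure D2:**
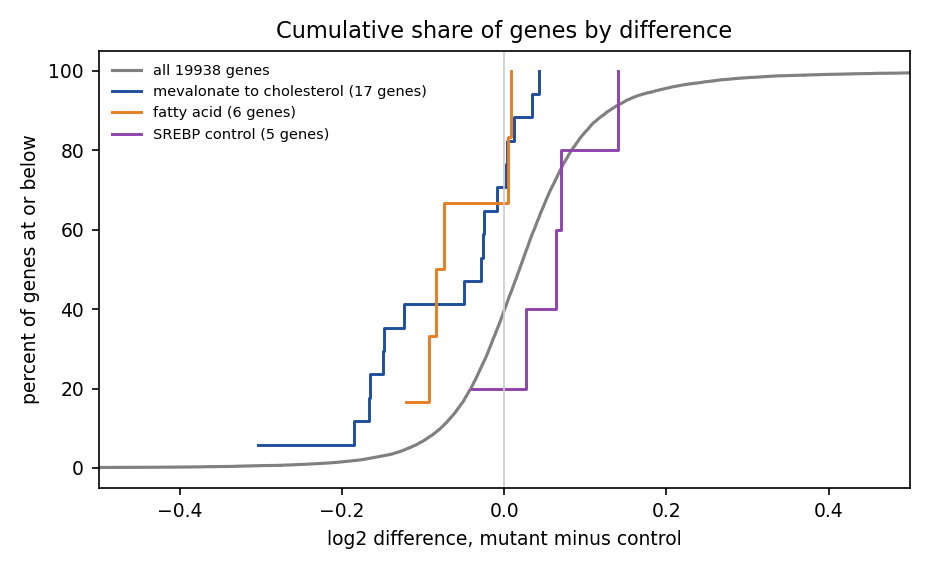
Percent of genes (y axis) whose log2 difference of mutant minus control lies at or below the value on the x axis, drawn between -0.5 and 0.5, for all 19938 genes and for 3 groups of listed genes. The 17 genes from mevalonate to cholesterol and the 6 fatty acid genes lie to the left of the curve of all genes over most of their range, and the 5 SREBP control genes lie mostly to its right.

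Promoter sequence was used as a feature that played no part in the choice of the genes. RefSeq windows of the 250 bases before an annotated start (GRCm38.p6) were found for 24 of the 30 genes. Of these, 23 were measured on the arrays, and the other was Acat2, whose window held GGGCGG. No window was found for Fdps, Fdft1, Sqle, Stard4, Scd1 and Scd2. These windows were searched on both strands for the sterol regulatory element TCACNCCAC, the NF-Y box CCAAT, the Sp1 box GGGCGG and the E-box CACGTG, and a gene was counted if any of its starts held a match. CCAAT was present in 19 of the 24 genes, or 79.2%, against 37.5% of all 27025 genes with a window and 38.8% of the 15614 of them measured on the arrays. GGGCGG was present in 20, or 83.3%, against 35.4% of all genes and 49.3% of those measured. CACGTG was present in 5, or 20.8%, against 6.86% of all genes and 8.11% of those measured. The strict sterol element was present in 1, Hmgcs1, or 4.17%, against 1.22% of all genes and 1.2% of those measured. Counted per window, CCAAT was in 20 of 32, or 62.5%, against 33.8% of all windows, and GGGCGG in 23, or 71.9%, against 32.7%. A match describes letters in the window, and no match says only that these letters are not there.

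The windows of 4 genes are shown as examples. Hmgcs1 is the gene with the strict sterol element, Cyp51 had the largest difference on the list, Fasn carries the fatty acid arm, and Insig1 holds NF-Y, Sp1 and E-boxes together. Each is written 5′ to 3′ on the strand of its gene and ends at the base before the start, with every match in capitals. The Hmgcs1 window is chr13:119690101-119690350 on the plus strand, Cyp51 is chr5:4104698-4104947 on the minus strand, Fasn is chr11:120824548-120824797 on the minus strand, and Insig1 is chr5:28071162-28071411 on the plus strand.
Hmgcs1: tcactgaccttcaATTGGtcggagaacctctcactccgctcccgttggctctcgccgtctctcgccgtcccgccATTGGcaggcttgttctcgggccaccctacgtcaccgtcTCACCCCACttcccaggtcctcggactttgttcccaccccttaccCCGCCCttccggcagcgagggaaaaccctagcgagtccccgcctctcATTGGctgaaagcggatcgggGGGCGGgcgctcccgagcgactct
Cyp51: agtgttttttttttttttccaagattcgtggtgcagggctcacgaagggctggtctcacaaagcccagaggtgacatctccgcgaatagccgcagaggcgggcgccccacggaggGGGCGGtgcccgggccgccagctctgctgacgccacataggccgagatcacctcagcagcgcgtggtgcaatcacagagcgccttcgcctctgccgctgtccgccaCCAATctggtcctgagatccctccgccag
Fasn: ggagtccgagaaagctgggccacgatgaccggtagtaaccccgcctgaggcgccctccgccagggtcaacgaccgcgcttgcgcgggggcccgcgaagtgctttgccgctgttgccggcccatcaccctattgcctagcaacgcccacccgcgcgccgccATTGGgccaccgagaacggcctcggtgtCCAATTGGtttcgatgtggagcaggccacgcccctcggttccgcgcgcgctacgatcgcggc
Insig1: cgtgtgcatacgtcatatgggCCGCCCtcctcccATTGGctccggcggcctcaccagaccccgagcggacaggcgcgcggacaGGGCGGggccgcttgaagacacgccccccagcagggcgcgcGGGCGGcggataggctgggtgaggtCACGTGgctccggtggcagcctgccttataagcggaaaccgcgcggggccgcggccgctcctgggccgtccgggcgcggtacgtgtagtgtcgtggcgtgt
In Hmgcs1 the sterol element lies 137 to 129 bases before the start, between NF-Y boxes, read as ATTGG on the printed strand, that begin 176 and 45 bases before it. In Cyp51 a single CCAAT begins 29 bases and a single GGGCGG 135 bases before the start. Fasn has 3 NF-Y boxes and no Sp1 box, and its boxes that begin 62 and 59 bases before the start overlap in 1 palindrome. Insig1 has 3 Sp1 boxes, 1 NF-Y box and 1 E-box, which begins 101 bases before the start. The 4 genes differ in their boxes, and their differences between genotypes were -0.05, -0.30, 0.01 and -0.04 in the same order.

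No gene of the mevalonate steps passed the test. Hmgcs1, which condenses acetoacetyl-CoA with acetyl-CoA, read 11.49, 11.44 and 11.55 in controls and 11.47, 11.28 and 11.57 in mutants. Its mutant values enclosed the control values, and the difference was -0.05 ± 0.08 (SE). The kinases Mvk and Pmvk, which phosphorylate mevalonate in turn, differed by 0.03 and -0.15, and the decarboxylase Mvd, which makes isopentenyl diphosphate, by 0.00. Idi1, the isomerase of isopentenyl diphosphate, read 10.38, 10.44 and 10.61 in controls and 10.16, 10.29 and 10.42 in mutants. Of the mutant embryos only replicate 3 reached the control range, and the difference was -0.18 ± 0.09 (SE, limma adjusted p = 0.894). It was -0.12 without mutant replicate 1, -0.12 without control replicate 3 and -0.25 without mutant replicate 3. A second Idi1 probe set gave -0.17. Fdps, the synthase of farnesyl diphosphate, differed by -0.03. Of the 6 measured genes of these steps 4 had a negative difference.

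The squalene and sterol steps held the lowest difference on the list. Cyp51 (Entrez 13121), the demethylase of lanosterol, read 10.60, 10.39 and 10.70 in controls and 10.19, 10.05 and 10.53 in mutants. Mutant replicates 1 and 2 lay below every control, while mutant replicate 3 lay inside the control range. The difference was -0.30 ± 0.13 (SE), a 1.23-fold lower mean, with a 95% interval of -0.60 to -0.01 and a limma adjusted p of 0.787. It was -0.20 without mutant replicate 2 and -0.44 without mutant replicate 3. Fdft1 (Entrez 14137), the squalene synthase that commits isoprenoids to sterols, read 12.37, 12.43 and 12.35 in controls and 12.17, 12.29 and 12.20 in mutants. Its groups did not overlap, and the difference was -0.17 ± 0.06 (SE, limma adjusted p = 0.631). A second Fdft1 probe set gave -0.16. Sqle, the epoxidase that acts on squalene, read 10.95, 10.92 and 11.06 in controls and 10.78, 10.74 and 10.96 in mutants. Again only mutant replicate 3 reached the control range, and the difference was -0.15 ± 0.08 (SE).

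Later sterol steps were mixed. Tm7sf2, a sterol reductase, differed by -0.17, and Msmo1, which oxidises the methyl groups of sterols, by -0.12. The mutant values of Msmo1, 10.76, 10.71 and 10.66, touched the control range at its lower end, since control replicate 1 was at 10.75. Differences of Lss, the lanosterol synthase, Nsdhl and Hsd17b7, which act with Msmo1 in demethylation, Ebp, a sterol isomerase, Sc5d, a desaturase, and Dhcr7, which makes cholesterol in the last step, lay between -0.03 and 0.04. The interval of Dhcr7, from -0.15 to 0.18, was inside a 1.2-fold change. Over the 11 squalene and sterol genes 8 had a negative difference, with a median of -0.03.

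**Figure D3:**
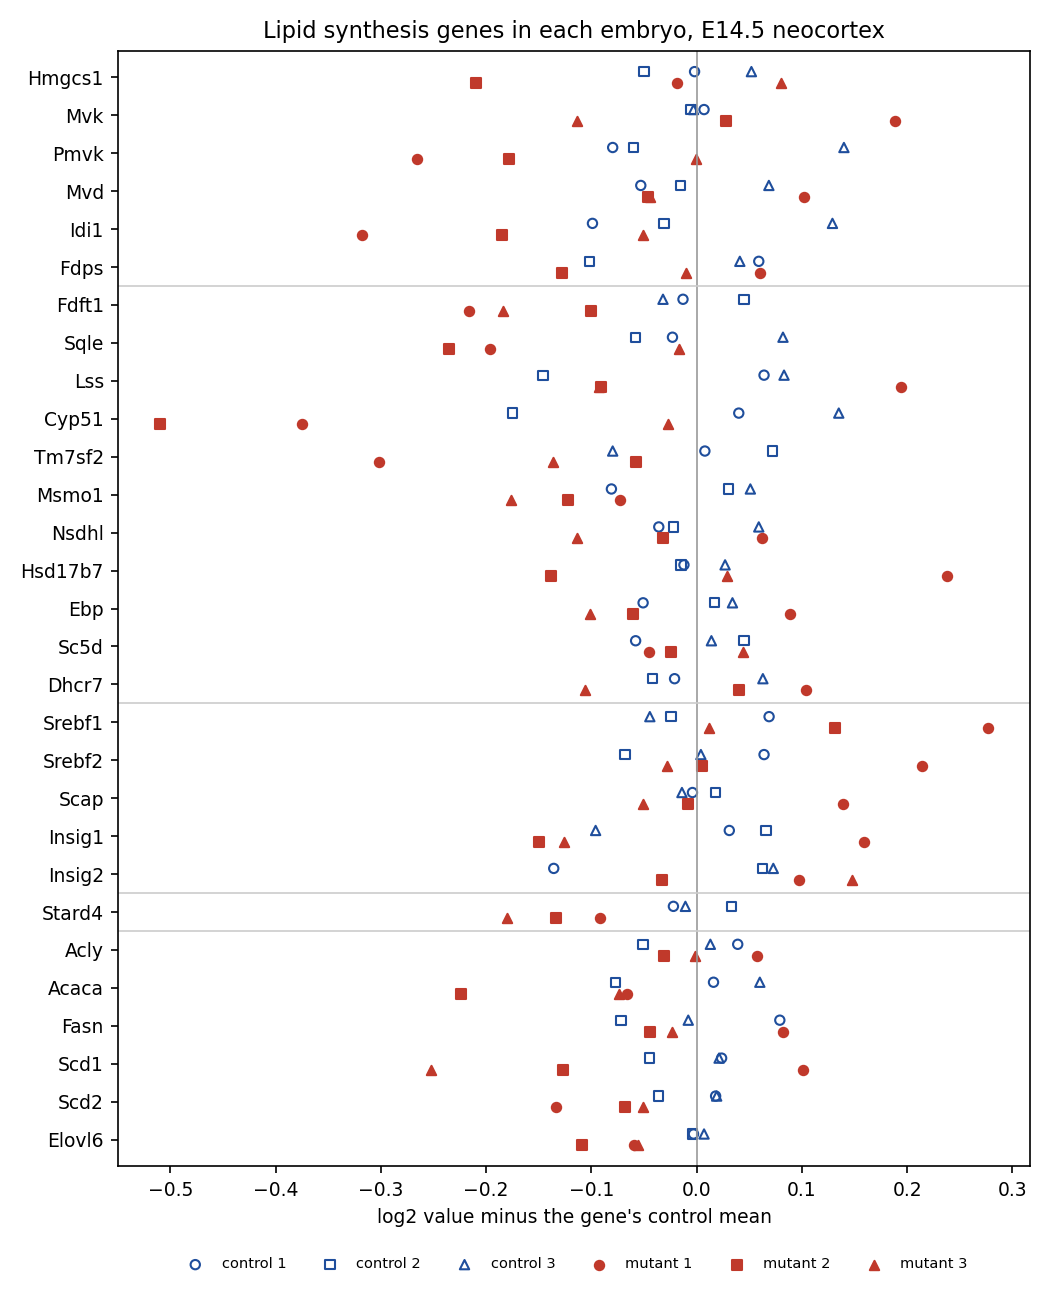
Log2 value of each embryo minus the gene's control mean (x axis) for the 29 listed genes (y axis), with controls as open blue and mutants as filled red symbols, and the symbol shape giving the replicate number. Horizontal lines part the mevalonate steps, the squalene and sterol steps, SREBP control, sterol transfer and the fatty acid steps. Mutant replicates 1 and 2 of Cyp51 lie farthest to the left, and mutant replicate 1 lies to the right for Srebf1, Srebf2, Scap and Insig1.

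Among the regulators, 4 of 5 differences were positive. Srebf1, the SREBP gene tied mainly to fatty acid synthesis, read 9.23, 9.14 and 9.12 in controls and 9.44, 9.30 and 9.18 in mutants. Mutant replicates 1 and 2 lay above every control and replicate 3 inside their range, and the difference was 0.14 ± 0.08 (SE, limma adjusted p = 0.989). Srebf2, the SREBP gene tied mainly to cholesterol synthesis, differed by 0.06, Scap by 0.03, Insig2 by 0.07 and Insig1, itself an SREBP target, by -0.04. Mutant replicate 1 was the highest of all 6 embryos for Srebf1, Srebf2, Scap and Insig1. Without it the difference of Srebf1 was 0.07, of Srebf2 -0.01, of Scap -0.03 and of Insig1 -0.14. Srebf1 transcript and SREBP activity are separate quantities, and the arrays measured only the transcript.

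Stard4 (Entrez 170459), a carrier of sterols between membranes whose gene is a known SREBP target, read 9.42, 9.47 and 9.43 in controls and 9.35, 9.31 and 9.26 in mutants. The groups did not overlap. The difference was -0.14 ± 0.06 (SE, limma adjusted p = 0.802), with a 95% interval of -0.27 to -0.0035.

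Of the 6 fatty acid genes 4 had a negative difference, with a median of -0.08. Acly, which makes cytosolic acetyl-CoA from citrate, and Fasn, the fatty acid synthase, each differed by 0.01, and Fasn values ran from 11.53 to 11.68 in the controls and from 11.55 to 11.68 in mutants. Acaca, the acetyl-CoA carboxylase, differed by -0.12, and by -0.11 in a second probe set. Scd2, a desaturase known from the developing brain, read 12.95, 12.90 and 12.95 in controls and 12.80, 12.87 and 12.88 in mutants. These groups did not overlap, with a difference of -0.08 ± 0.06 (SE). Elovl6, which elongates palmitate, read 11.49, 11.49 and 11.50 in controls and 11.43, 11.38 and 11.44 in mutants. Its groups did not overlap either, and the difference was -0.07 ± 0.06 (SE). The paralog Scd1 differed by -0.09, with mutant values spread from 9.03 to 9.38. The limma adjusted p was 0.9995 for each of these 6 genes, and no difference between early and late enzymes of the route was tested.

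Embryos of 1 genotype also differed from each other. Mutant replicate 1 was the highest of the 6 arrays for 15 of the 29 genes, or 51.7%, where it was the highest for 27.6% of all genes. Mutant replicates 2 and 3 were the lowest for 8 genes each, or 27.6%, where they were the lowest for 12.8% and 10.7% of all genes. Control replicate 3 was the highest for 8 genes, and control replicate 1 for none, where it was the highest for 21.2% of all genes. Without mutant replicate 1, 26 of 29 genes had a negative difference beside 42.2% of all genes, and the median was -0.07 beside 0.01. Among these were 16 of the 17 genes from mevalonate to cholesterol and all 6 fatty acid genes. In that fit, too, 0 of 29 genes passed by limma, with 2 at an unadjusted p under 0.05 and a lowest adjusted p of 0.932. It was the leave-out fit with the most negative differences. Their number was 18, 22 and 17 of 29 without control replicate 1, 2 or 3. It was 16 without mutant replicate 2 and 15 without mutant replicate 3. Mutant replicate 1 is also the array with the high levels of pericyte and meningeal genes, and the part of those cells in the values was not tested.

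Averaged over genes, the sterol arm was lower in every mutant than in every control, by a small amount, while the whole list overlapped. For each array the mean was taken over genes of the value minus the gene's mean of the 6 arrays. For the 11 squalene and sterol genes the controls were at 0.025, 0.019 and 0.081 and the mutants at -0.0060, -0.080 and -0.039. The group means were 0.04 ± 0.03 and -0.04 ± 0.04 (SD, n = 3 for both), a difference of -0.083. The 17 genes from mevalonate to cholesterol did not overlap between groups either, with a difference of -0.075. Their groups came close, with control replicate 2 at 0.0076 and mutant replicate 1 at -0.0078. The 6 mevalonate genes alone gave 0.03 ± 0.06 and -0.03 ± 0.05, and their groups overlapped. The 6 fatty acid genes gave 0.03 ± 0.04 and -0.03 ± 0.05. The 5 regulators gave -0.03 ± 0.01 and 0.03 ± 0.11, with mutant replicate 1 at 0.15 and the other mutants at -0.04 each. These means are a description and carry no test. They were taken from the deposited values, where array medians ran from 7.23 to 7.33, and were not recomputed under other normalizations.

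**Figure D4:**
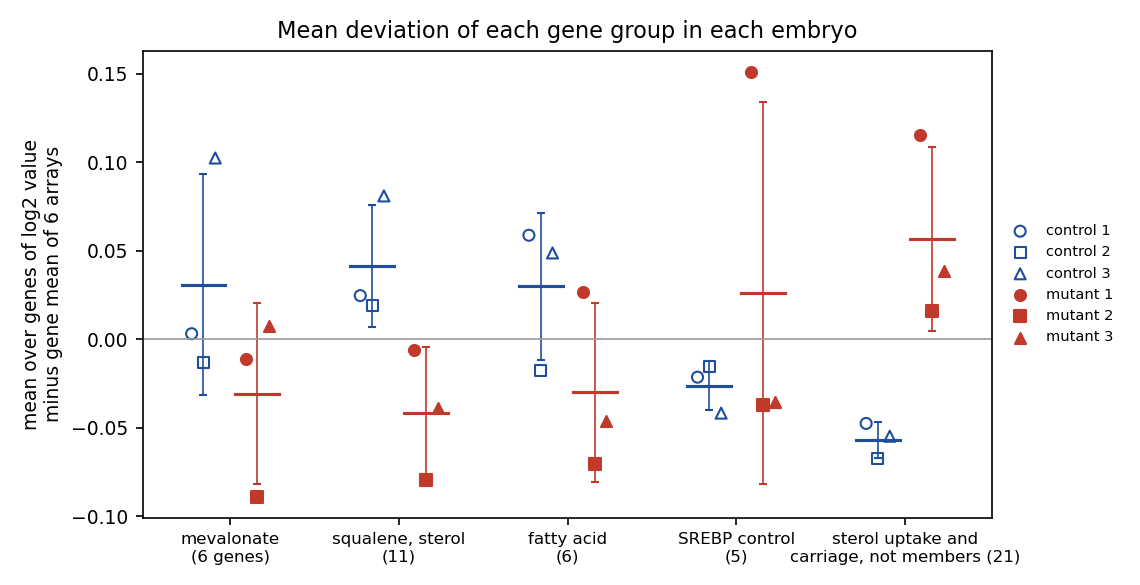
Mean over the genes of a group of each log2 value minus that gene's mean of the 6 arrays (y axis), for 4 groups of listed genes and for 21 genes of sterol uptake and carriage that are not on the list. Points are embryos, horizontal bars group means and vertical bars SDs over 3 arrays. The regulators of mutant replicate 1 lie at 0.15, and the 3 mutants lie above the 3 controls for sterol uptake and carriage.

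Variation within a genotype was compared between genes. After each value was set against its group mean, the median correlation over the 136 pairs of the 17 genes from mevalonate to cholesterol was 0.01, over 6 arrays that share their group means, and it was 0.02 over 1987021 pairs of 1994 genes taken at even steps through all genes. Some pairs tracked closely, such as Pmvk and Idi1 with r = 0.98, Sqle and Cyp51 with r = 0.96, and Acly and Fasn with r = 0.96. Others ran in opposite directions as strongly, such as Fdft1 with Acaca (r = -0.98) and with Fdps (r = -0.96), and Stard4 with Scd2 (r = -0.95). All of these pairs were chosen after their values were seen. Correlations over 0.5 made up 32.4% of the sterol pairs and 22.6% of the reference pairs. The 10 pairs of the 5 regulators had a median of 0.76, and mutant replicate 1 was highest for 4 of those genes. The 15 pairs of the 6 fatty acid genes had a median of 0.37, with 46.7% over 0.5, and the 406 pairs of all 29 listed genes a median of 0.21, with 35.5% over 0.5.

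Of the 83 further genes listed around lipid synthesis 70 were measured, and 0 of 70 passed by limma, with 9 at an unadjusted p under 0.05, all higher, where 4.53% of all genes passed that mark on the higher side. Their groups did not overlap for 11, all higher, beside 7.69% of all genes. The 9 other genes of sterol and isoprenoid synthesis had differences between -0.05 and 0.07, led by Lbr, a sterol reductase of the nuclear envelope, at 0.07, Erg28 at 0.07 and Idi2 at 0.06. The 9 further genes that control SREBP processing or sterol sensing lay between -0.04 and 0.06, with Fbxw7, which marks nuclear SREBP for breakdown, at 0.06, Mbtps1, the protease that first cleaves SREBP, at 0.06, and Pgrmc1 at 0.05.

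Of 21 measured genes of sterol uptake and carriage 17 had a positive difference, with a median of 0.08, where 60.3% of all genes did and the median was 0.02. Apoe, the main apolipoprotein of brain, read 9.69, 9.70 and 9.48 in controls and 10.44, 9.97 and 9.97 in mutants. Abca1, which loads cholesterol onto lipoprotein particles, read 8.58, 8.66 and 8.56 in controls and 9.04, 8.85 and 8.97 in mutants. Abcg1, a second exporter of cholesterol, read 9.13, 9.13 and 9.29 in controls and 9.50, 9.42 and 9.45 in mutants. The groups of all of these genes were apart, with every mutant above every control.

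The difference of Apoe was 0.50 ± 0.13, of Abca1 0.35 ± 0.07 and of Abcg1 0.27 ± 0.07 (SE), with limma adjusted p of 0.298, 0.126 and 0.240. With array weights Abcg1 passed (limma adjusted p = 0.0380), as did Gramd1b, which moves sterols from the plasma membrane (limma adjusted p = 0.0460). These were the only 2 of the 70 genes to pass in any of the alternatives. That fit called 217 of all 19938 genes, where the main fit called 57. It weighted control replicate 2 at 3.02 and mutant replicate 2 at 2.18, and the other arrays at 0.45 to 0.94. Gramd1b read 9.99, 9.99 and 10.09 in controls and 10.26, 10.27 and 10.21 in mutants, a difference of 0.23 ± 0.06 (SE, limma adjusted p = 0.307). Through the alternatives Abca1 came to an adjusted p between 0.0772 and 0.384 without passing 0.05, and Apoe to one between 0.156 and 0.665. Without mutant replicate 1 the differences of Apoe, Abca1 and Abcg1 were 0.34, 0.31 and 0.25. Macrophages and meningeal cells express these genes too. All 8 microglia markers had a positive difference, with a median of 0.23 and a summed log2 level of 10.3 to 10.5 in controls and 10.6 to 10.7 in mutants. Of 10 pericyte and meningeal markers 9 did, with a median of 0.34, and no marker is at 0 in these data, since the deposited values have no zeros. Without mutant replicate 1 the difference was positive for 7 of these 10, with a median of 0.14. In that fit it was positive for all 8 microglia markers, with a median of 0.21. Erythroid markers differed more. All 10 were positive, 6 of them passed the test, the median was 0.64, and the summed log2 level was 12.4 to 12.7 in controls and 13.6 to 13.8 in mutants. These differences ran from 0.01 for Gata1 and 0.07 for Epor to 5.02 for the globin gene Hbb-bh1. Whether more erythroid cells or more transcript per cell lies behind them was not tested. All 8 endothelial markers had a positive difference too, with 0 called, a median of 0.11 and overlapping summed levels of 11.5 to 11.7 and 11.5 to 11.9. The part of these cells in the carriage genes was not tested. A test of the difference between the synthesis and the carriage genes was not run.

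Among 31 further fatty acid genes 20 had a positive difference, with a median of 0.02, as over all genes. Oxsm, the condensing enzyme of mitochondrial fatty acid synthesis, read 8.33, 8.47 and 8.46 in controls and 8.92, 8.58 and 8.63 in mutants, a difference of 0.29 ± 0.10 (SE, limma adjusted p = 0.525). Acss2, which makes acetyl-CoA from acetate, differed by 0.27 ± 0.10 (SE, limma adjusted p = 0.664), with mutant values of 9.99, 9.74 and 9.56 above control values of 9.50, 9.43 and 9.54. Elovl1, an elongase of long saturated chains, differed by 0.20 (limma adjusted p = 0.631). For each of these genes the groups did not overlap, and mutant replicate 1 held the highest value. Without that array the difference was 0.19 for Oxsm, 0.16 for Acss2 and 0.15 for Elovl1.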

How the data were processed

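Per the submitters' processing notes, the authors used Affymetrix Expression Console with RMA, and the deposited values were taken as log2 values, since RMA gives log2 values and they ran from 3.41 to 13.8. Versions and genome build are not given in the labels. RMA compresses differences of dim genes, and its quantile step hides a shift of most genes in 1 direction. Gene names come from the platform annotation held by GEO, which may be outdated. Among 35556 probe sets 21789 had 1 symbol, 1621 several and 12146 none, and 21698 were matched to RefSeq (GRCm38.p6). Genotypes were compared with limma 3.58.1 in R 4.3.3 (lmFit and eBayes, 6 arrays, no covariate), two-sided, with Benjamini-Hochberg adjustment over all 19938 genes and a threshold of 0.05. The script was tested on simulated data. Promoters are RefSeq's. The members and lists were chosen with earlier results of these data known. All members are named, and from each further list those past the threshold and up to 3 others with the largest difference. Tmem43 stands in the further fatty acid list without a clear role there and was kept. Arrays have no read depth, and their number limits the precision. Alternatives were other normalizations, array weights, a variance trend, sex, the replicate number, a filter on dim genes, other probe sets, a threshold of 0.1 and leaving out each array.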

Additional observations from a re-analysis of the deposited data

How the results depend on the processing

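No listed gene passed in any of the 16 alternatives, and 464 of 464 results of single genes kept their side of the threshold, although the sign of 16 genes turned in at least 1 of them, 10 of them without mutant replicate 1. The median difference of the list lay between -0.073 and -0.0011 when 1 array was left out, and it was below 0 in each alternative for which it was computed. The number of genes called over the whole array was 57, and 217 when arrays were weighted, 24 with a term for sex, 107 at an adjusted p under 0.1 and 20 to 50 in the 6 fits on 5 arrays. In the fit with a replicate block it was 34, and 0 of the 29 listed genes passed. Deviations from the group means correlated at 0.03, -0.14 and 0.08 between arrays of the same number, so the numbers were not taken as pairs. The cause of these shifts was not tested. With 3 arrays per genotype the median SE of a listed gene was 0.07 in the main fit, where no difference under 0.38 was called. With array weights smaller differences were called, such as 0.29 for Abcg1 and 0.26 for Gramd1b, which are not on the list.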
